A study of Rattus norvegicus with 8 samples.

Results

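The 7 genes described here are known best from oligodendrocytes, the cells that wrap axons of the brain and spinal cord in myelin. Which cells made their RNA in these cords was not measured. They are the genes of the myelin proteins Mbp, Omg, Opalin and Tspan2, of the lipid enzyme Ugt8, of the gap junction protein Gjb1 and of the transcription factor St18. Every transcript cluster (the array's unit for a gene) whose single gene symbol in the platform table was one of these names was taken, which gave 8 of the 8793 clusters in the data: 1 for each gene, and 2 for Mbp. In 6 of the 7 genes the cluster was between 1.83-fold and 2.26-fold lower in the cords of rats with disease, and Mbp cluster 1, the one of its pair with the higher mean, was 1.51-fold lower. Mbp cluster 2 did not pass the test.

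The spinal cords came from female Lewis rats, listed as 16 weeks old, taken on day 13 after injection in the diseased group near the peak of disease, and at the same time in the controls. The 4 rats with MBP-EAE had been injected under the skin with myelin basic protein (MBP), 50 µg a rat, in Freund's incomplete adjuvant with M. butyricum, which induces experimental autoimmune encephalomyelitis (EAE), a paralytic inflammatory disease of the cord. The 4 healthy controls were unimmunized rats of matched age, so antigen and adjuvant differ between the groups together. RNA of the whole cord of 1 rat was hybridised to 1 exon array, and values are log2 intensities as deposited, on which a difference of 1 is a doubling.

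Myelin is a stack of cell membrane that insulates axons and lets impulses jump between nodes. Mbp holds the inner faces of that membrane together, and Ugt8 makes galactosylceramide, its most typical lipid. Omg lies on the cell surface and binds the Nogo receptor, which restrains the growth of axons. Opalin and Tspan2 are membrane proteins of oligodendrocytes, Gjb1 is a connexin that forms channels between layers of myelin and between cells, and St18 belongs to a small family of zinc finger factors that includes Myt1. In whole cord, fewer oligodendrocytes, less RNA per oligodendrocyte and a change in any other cells that make these genes cannot be told apart.

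To show what lies before the start sites of genes that were lower in disease, 3 upstream windows are printed, which differ in base composition and in the motifs they hold. They are the 250 bases before the start in RefSeq's GRCr8 assembly of the rat genome, 5′ to 3′ on the strand of the gene. Capitals mark matches to the Sox cores ACAAAG and ACAATG or to the Myrf core CTGGNAC, on either strand.
Opalin, chr1:249858191-249858440, minus strand: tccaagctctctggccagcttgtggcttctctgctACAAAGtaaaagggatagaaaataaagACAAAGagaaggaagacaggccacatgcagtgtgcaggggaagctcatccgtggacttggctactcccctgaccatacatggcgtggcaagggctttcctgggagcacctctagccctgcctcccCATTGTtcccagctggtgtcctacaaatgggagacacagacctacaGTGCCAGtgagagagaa
Gjb1, chrX:70541595-70541844, plus strand: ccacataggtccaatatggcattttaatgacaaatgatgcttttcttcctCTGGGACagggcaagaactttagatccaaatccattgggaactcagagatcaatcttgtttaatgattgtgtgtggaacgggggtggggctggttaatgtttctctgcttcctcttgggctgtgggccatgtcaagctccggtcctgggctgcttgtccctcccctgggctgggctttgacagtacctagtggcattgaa
Ugt8, chr2:217007168-217007417, minus strand: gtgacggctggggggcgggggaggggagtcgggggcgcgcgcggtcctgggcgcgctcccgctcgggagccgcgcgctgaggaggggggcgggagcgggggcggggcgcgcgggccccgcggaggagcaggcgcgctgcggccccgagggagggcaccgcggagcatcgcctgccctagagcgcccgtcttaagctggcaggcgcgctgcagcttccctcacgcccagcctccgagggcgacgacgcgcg
Sox10 and Myrf are factors that oligodendrocytes need to make myelin, and Olig1 and Olig2 are factors of their lineage. The Opalin window held 3 Sox cores and a Myrf core, that of Gjb1 held a Myrf core alone, and that of Ugt8, with 81.2% G and C, held none. The E-box CAGNTG, which Olig factors can bind, was found once in the window of Opalin and once in that of Omg. RefSeq gave 2 windows for Mbp, of which 1 held 3 Sox cores and 2 E-boxes and the other a Myrf core alone. The window of Tspan2 held none of these motifs, and no window was found here for St18. Of all 33469 windows of the same length, 25.3% held either Sox core, 14.8% the Myrf core and 43.3% the E-box. No match overlapped another in the printed windows, and the Opalin start in that table lies inside the span of the gene. A match here describes letters, and binding was not measured.

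The first question was whether the genes of the myelin sheath itself differed between the groups. Omg had values of 10.19, 10.35, 10.37 and 10.80 in healthy rats 193, 194, 195 and 196, and of 9.51, 8.93, 9.67 and 9.53 in MBP-EAE rats 217, 218, 219 and 241. Every diseased rat lay below every healthy one, and rat 218 was the lowest. The mean was 10.43 ± 0.26 (SD, n = 4) in health and 9.41 ± 0.33 (n = 4) in disease, a log2 fold change of -1.02 (SE 0.18, 95% confidence interval -1.42 to -0.61; 2.02-fold lower, limma adjusted p = 0.00254).

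Opalin had values of 8.26, 8.01, 7.21 and 7.91 in the healthy rats in the same order, and of 6.77, 6.74, 7.01 and 7.08 in the MBP-EAE rats. The groups were apart by 0.13 only, because healthy rat 195 was close to the diseased rats while the other 3 healthy rats were at 7.91 or more. Opalin was 1.93-fold lower in MBP-EAE (log2 fold change -0.95, SE 0.20, limma adjusted p = 0.00694), with an SD of 0.45 among healthy and 0.17 among diseased rats.

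Tspan2 had values of 10.53, 10.53, 10.21 and 10.69 in the healthy rats and of 9.51, 9.28, 9.77 and 9.93 in the diseased rats, with no overlap. It was 1.83-fold lower (log2 fold change -0.87, SE 0.16, limma adjusted p = 0.00286), and, as for Opalin and Omg, rat 218 was the lowest of the MBP-EAE rats.

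Mbp, whose protein was the antigen injected, was measured by 2 clusters, 7172667 (cluster 1) and 7172657 (cluster 2). Cluster 1 (11.42, 11.48, 11.27 and 11.45 in the healthy rats, 10.77, 10.63, 10.83 and 11.00 in the MBP-EAE rats) was lower in every diseased rat than in every healthy one. Its mean fell from 11.41 ± 0.09 to 10.81 ± 0.15 (SD, n = 4 each), a log2 fold change of -0.60 (SE 0.10, 95% confidence interval -0.83 to -0.36, limma adjusted p = 0.00230). Turned back to the linear scale, this fold change is an array intensity in disease of 66.1% of the healthy one, against 44.2% to 54.8% for the other 6 genes. How intensity follows the amount of RNA was not measured for these clusters. Cluster 2 had values of 5.69, 5.57, 5.58 and 5.90 in the healthy and of 5.67, 5.53, 5.51 and 5.58 in the diseased rats. These overlapped, and the difference of -0.12 (95% confidence interval -0.34 to 0.11, limma adjusted p = 0.458) did not pass the test. Which transcripts of Mbp each cluster reads was not examined here.

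Ugt8 had the largest fall of the 7 genes. Its values were 11.47, 11.82, 11.55 and 11.94 in the healthy rats and 10.65, 10.24, 10.71 and 10.48 in the MBP-EAE rats, so that 0.77 lay between the lowest healthy and the highest diseased rat. The mean fell from 11.70 ± 0.22 to 10.52 ± 0.21 (SD, n = 4 each), which is 2.26-fold (log2 fold change -1.18, SE 0.14, 95% confidence interval -1.50 to -0.86, limma adjusted p = 0.000223). Of all clusters, 0.387% fell by more.

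Gjb1 had values of 5.94, 6.12, 6.23 and 5.99 in the healthy rats and of 5.09, 5.16, 4.90 and 4.91 in the diseased rats. It was 2.08-fold lower (log2 fold change -1.06, SE 0.11, limma adjusted p = 6.58e-05), with an SD of 0.13 in each group and a gap of 0.77 between them. Its level in disease was close to the median of all clusters on those arrays (5.00 to 5.08).

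The transcription factor gene St18 had values of 7.31, 7.45, 7.02 and 7.61 in the healthy rats and of 6.40, 6.30, 6.48 and 6.34 in the diseased rats. The 4 diseased rats lay within a narrow band (SD 0.08) below all healthy rats (SD 0.25). The fall was 1.96-fold (log2 fold change -0.97, SE 0.13, limma adjusted p = 0.000412).

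**Figure D1:**
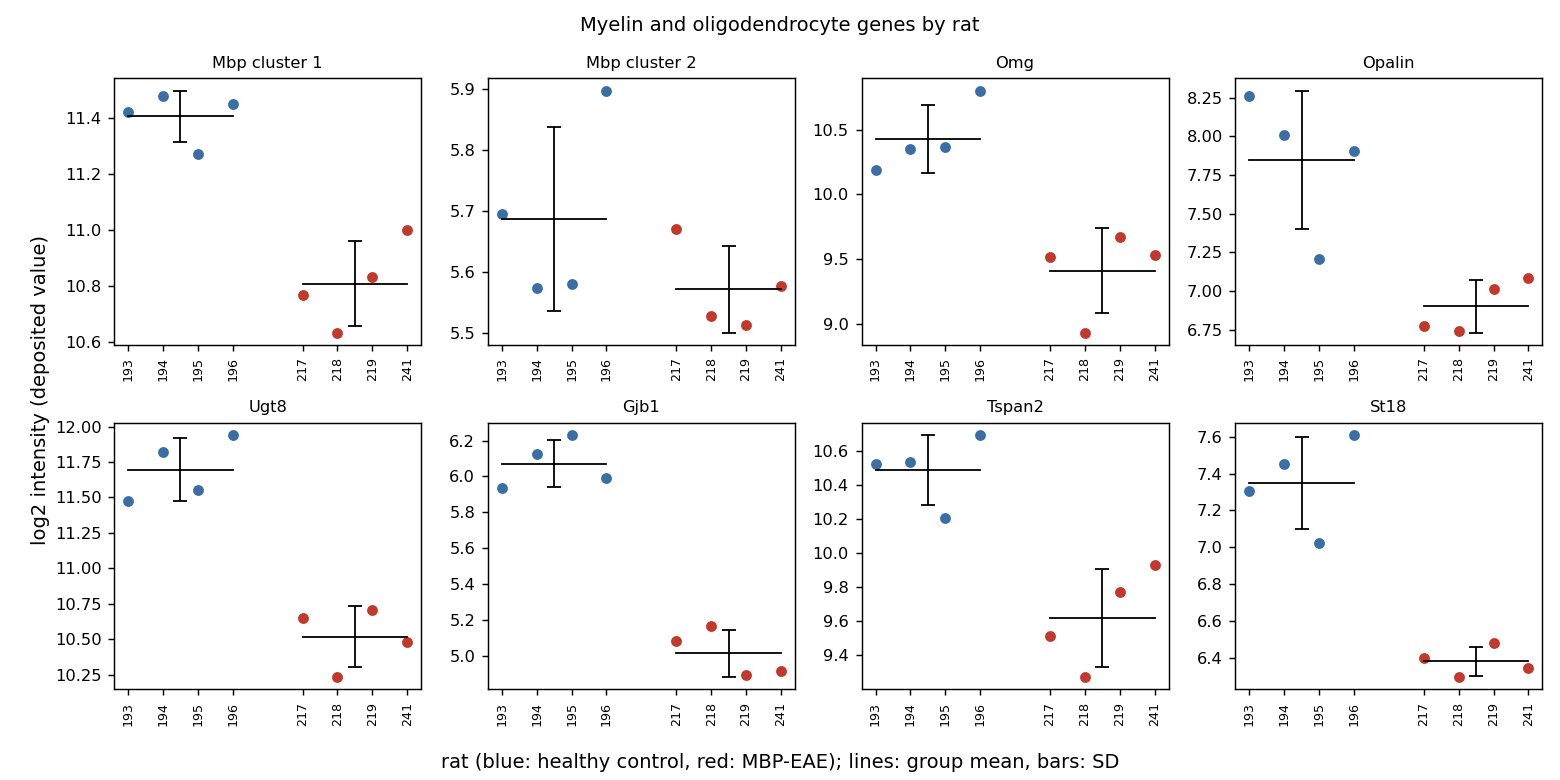
Log2 intensity of each of the 8 clusters (vertical axis, a scale of its own in each panel) in the 4 healthy (blue) and 4 MBP-EAE rats (red), with the group mean as a line and the SD as a bar. In 7 panels all red points lie below all blue points, and in that of Mbp cluster 2 they overlap.

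In all, 7 of the 8 clusters were called lower (limma, adjusted p under 0.05) and 0 higher, where 14.6% of the 8793 clusters were called lower and 11.3% higher. The same 7 had all diseased rats below all healthy rats, as 17.3% of all clusters did. A single gene compared in 4 against 4 rats cannot go below p = 0.0286 in an exact two-sided permutation test, and each of these 7 clusters was at that value. That value restates the lack of overlap between the groups. The falls of Omg, Opalin, Ugt8, Gjb1, Tspan2 and St18 were also large among all clusters, of which between 0.387% and 1.66% fell by more, whereas 6% fell by more than Mbp cluster 1. The median log2 fold change of all clusters was -0.10, and 64.4% were below 0. The 7 genes were chosen with earlier results of these data known. These counts and ranks therefore describe the genes and are no test of them as a set.

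The labels give no batch, but the study's own analysis used one and reported that its effect was not significant. The batches used here are those recovered, after the data were seen, from the published fold changes and p-values: 1 of 2719 allocations of the arrays returned both. In it rats 193, 195, 217 and 241 form batch 1, rat 194 batch 2 and rats 196, 218 and 219 batch 3. With batch as a term in limma the same 7 clusters were called lower, with adjusted p from 0.00204 for Gjb1 to 0.0450 for Opalin, and in this fit 6.88% of all clusters were called lower and 8.12% higher. The log2 fold change moved by at most 0.05 in any of the 8 clusters. Rat 194, alone in its batch, adds nothing to the group difference in that fit.

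Within batch 1, with 2 rats a group, the difference was -0.46 for Mbp cluster 1, -0.76 for Omg, -0.81 for Opalin, -0.95 for Ugt8, -1.08 for Gjb1, -0.64 for Tspan2 and -0.79 for St18. Within batch 3, with 1 healthy and 2 diseased rats, the same differences were -0.72, -1.50, -1.03, -1.47, -0.96, -1.17 and -1.22. All 7 were below 0 in both batches, and all but that of Gjb1 were larger in batch 3, where the only healthy rat was 196. No test was made within a batch.

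**Figure D2:**
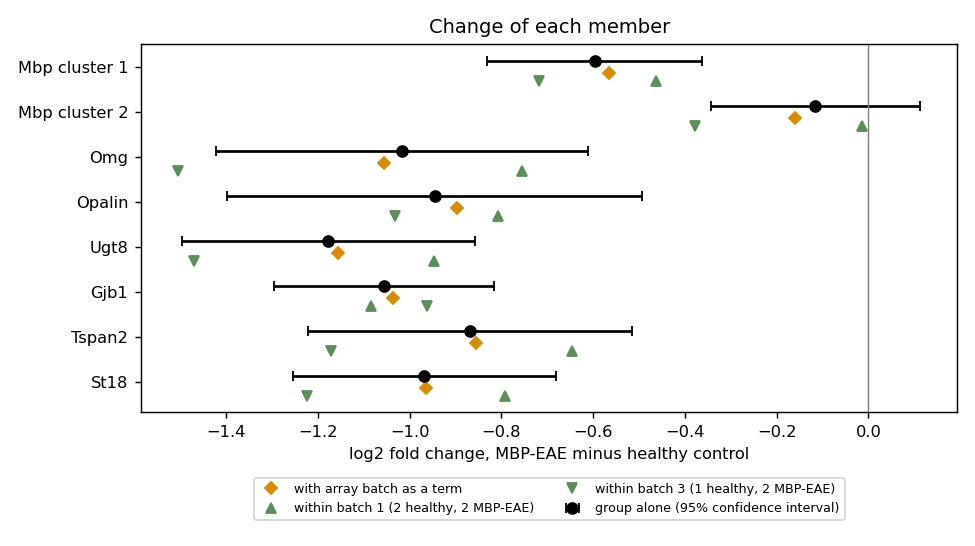
Log2 fold change, MBP-EAE minus healthy control (horizontal axis), for each cluster: black circles with the 95% confidence interval from limma without batch, diamonds with batch as a term, and triangles for the differences within batch 1 and batch 3. All symbols lie below 0, and the interval crosses 0 for Mbp cluster 2 alone.

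Whether some of the 7 genes fell more than others was tested on the difference between each pair within an array, with cluster 1 standing for Mbp. With 4 rats a group this exact two-sided permutation test can hardly pass after Benjamini-Hochberg adjustment, since 13 of the 21 pairs would have to be at the smallest p, 0.0286. None passed, which says little about whether the falls differed. At the unadjusted p = 0.0286 were 2 pairs, both with Mbp: it fell by 0.58 less than Ugt8 and by 0.37 less than St18, with no overlap between the groups in either difference (adjusted p = 0.240 by the exact permutation test). The changes of Mbp against Gjb1 (0.46), Omg (0.42) and Tspan2 (0.27) overlapped between the groups (unadjusted p = 0.0571 each, exact permutation). Mbp had the smallest fall of the 7 genes, and whether it differed from the others could not be settled with this number of rats.

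The rats of 1 group also differed among themselves, and several of the 7 genes shared their order. In the healthy group rat 195 was lowest in 4 genes and rat 193 in 3, and rat 196 was highest in 4. Rat 193 was lowest in Omg, Ugt8 and Gjb1 but highest in Opalin. Among the diseased rats rat 218 was lowest in 6 of the 7 genes and highest in Gjb1. Averaged over the 7 genes, the deviation from the mean of all 8 rats was 0.45, 0.54, 0.27 and 0.63 in healthy rats 193 to 196 and -0.47, -0.67, -0.37 and -0.38 in MBP-EAE rats 217, 218, 219 and 241. Rat 195 was therefore the healthy rat nearest to the diseased group and rat 218 the diseased rat farthest from the healthy group.

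Gjb1 mostly went the other way within the groups. It was 0.16 above its group mean in rat 195 and 0.15 above it in rat 218, where each of the other 6 genes was below its mean. Over the 8 arrays, the correlation of deviations from the group means was positive for all pairs of the other 6 genes, from 0.10 for Omg and Opalin to 0.95 for Mbp and Tspan2. Among the healthy rats alone that of Omg and Opalin was -0.14. Between Gjb1 and each of them it was negative (Tspan2 -0.87, Opalin -0.81, Mbp -0.75, St18 -0.56, Omg -0.50 and Ugt8 -0.34). With the group difference kept in, every pair had a positive correlation, from 0.74 to 0.99. These are descriptions over 8 arrays whose genes share the array and its scaling. The array of rat 195 had the narrowest spread of all clusters in the healthy group (interquartile range 2.23, against 2.61 to 2.93 on the other healthy arrays). That of rat 218 had the narrowest in the diseased group (2.63, against 2.71 to 2.90). In both rats Gjb1 was above its group mean and the other 6 genes were below theirs. The part of array spread in these deviations, and in the opposite course of Gjb1, was not tested.

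**Figure D3:**
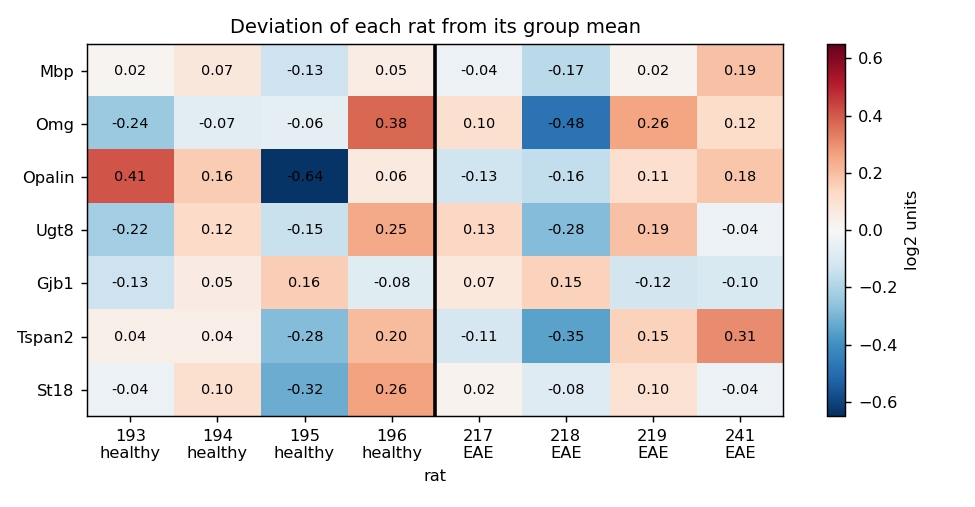
Deviation of each rat from the mean of its own group in log2 units, for the 7 genes (rows; cluster 1 for Mbp) and 8 rats (columns), with blue below and red above the mean. In the columns of rats 195 and 218 all genes but Gjb1 are below 0.

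The 5 genes outside the 7 whose values over the 8 arrays were most like the mean profile of the 7 were Lca5 (Pearson r = 0.996), Acsl3 (0.994), Vapb (0.993), Rims2 (0.993) and Fez1 (0.993). Acsl3 activates long-chain fatty acids, and Rims2 and Fez1 are known best from neurones. Their log2 fold changes were -1.09, -0.97, -0.42, -0.99 and -1.06, and all were called lower without batch (limma, adjusted p under 0.05). With the batch term Vapb was not (limma adjusted p = 0.0542). The mean profile was 0.27 to 0.63 in healthy and -0.67 to -0.37 in diseased rats. Genes picked for likeness to it are therefore lower in disease by that choice. For comparison, the 7 genes had an r of 0.90 (Gjb1) to 0.99 (St18) to the profile that they themselves make up.

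Other genes of myelin and of oligodendrocytes gave a mixed picture. The counts in the lists that follow stand beside 14.6% of all clusters called lower and 11.3% called higher (6.88% and 8.12% with the batch term). Of 20 further myelin protein genes measured, 8 were lower, 1 higher and 11 did not pass the test, with a median log2 fold change of -0.35 against -0.10 over all clusters. Gpr37, a receptor of oligodendrocytes (-0.77, limma adjusted p = 0.00509), Mag, an adhesion protein of the inner myelin layer that also binds the Nogo receptor (-0.66, limma adjusted p = 0.00317), and Sept4 (now Septin4), a filament protein of myelin (-0.62, limma adjusted p = 0.0125), had the largest falls among those called. Cryab, a small heat shock protein, was higher (0.46, limma adjusted p = 0.030), a call lost in 10 of 17 alternatives. With batch as a term 3 of the 20 were lower and 0 higher, namely Gpr37, Mag and, named after its values were seen, Ermn (-0.60). The number lower was 5 without rat 194 and also without rat 217.

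Mag had a mean of 7.87 ± 0.21 in health and 7.21 ± 0.11 in disease (SD, n = 4 each). Mog, the outermost glycoprotein of the sheath, had values of 10.13, 9.87, 8.96 and 9.67 in the healthy and of 9.46, 9.40, 9.47 and 9.80 in the diseased rats. Healthy rat 195 was below every diseased rat, and the difference of -0.13 did not pass the test (limma adjusted p = 0.723). Cnp, an enzyme of myelin, likewise overlapped, with 8.41, 7.98, 7.16 and 8.09 in the healthy and 7.66, 7.29, 7.88 and 7.91 in the diseased rats (-0.23, limma adjusted p = 0.553). For both genes it was again rat 195 that was lowest in its group.

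Of 15 further genes of myelin lipids and oligodendrocyte metabolism, 4 were lower, 3 higher and 8 did not pass. Galc, which breaks down the galactosylceramide that Ugt8 makes, was among the 3 that were higher. It had values of 7.55, 7.38, 6.88 and 6.93 in the healthy and 7.91, 8.13, 7.98 and 8.15 in the diseased rats, with no overlap (log2 fold change 0.86, SE 0.16, limma adjusted p = 0.00302, and 0.0127 in the fit with batch). Ugt8 and Galc therefore moved in opposite directions in the same cords. Galc is a lysosomal enzyme that other cells make too, and the genes of monocytes and macrophages rose in these cords. The part of those cells in the higher Galc values was not tested. The others were Pdk4, a kinase that curbs pyruvate use (0.99), and Gpd1, a glycerol phosphate dehydrogenase (0.63; limma adjusted p = 0.0585 with the batch term). The 4 that were lower, named after their values were seen, were carbonic anhydrase Car2 (-0.58), the creatine enzyme Gamt (-0.58), Gstp1 (-0.43) and the lipid transporter Abca2 (-0.42). With batch fitted Gamt alone of these was called (limma adjusted p = 0.0370), and Car2 (0.0816), Gstp1 (0.0671) and Abca2 (0.0537) were not. Without rat 195 the number lower in this list was 7.

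Of the 4 other connexin genes measured, Gjd2, a connexin of neurones, was lower (-0.66) and Gja1, the main connexin of astrocytes, was higher (0.69, limma adjusted p = 0.0122). Gjb6, also listed for astrocytes, was at -0.61 and did not pass (limma adjusted p = 0.115). None of the 15 further tetraspanins was lower (1 without rat 195 and 1 without rat 241, 2 with array weights and 3 after repeated quantile normalization) and 6 were higher. The leukocyte tetraspanins Cd53 (3.13) and Cd37 (2.10) and the lysosomal Cd63 (1.50) had the largest rises, and 3 of the 15 stayed higher when batch was fitted.

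Of 8 further transcription factors of oligodendrocytes 2 were lower, where 14.6% of all clusters were called lower and 11.3% higher. Myt1l, a relative of St18 best known from neurones, was at -0.74, and Sox10 at -0.36 (limma adjusted p = 0.0162, and 0.0904 with the batch term), a call also lost without rat 196 and without rat 241. Olig1 was at -0.19 and did not pass (limma adjusted p = 0.221). Among 10 genes that restrain oligodendrocyte differentiation 0 were higher and 3 lower, Sox5 (-0.65), Id4 (-0.44) and Bmp4 (-0.27), of which Sox5 alone stayed lower when batch was fitted. The number was 1 also without any of rats 194, 196, 217, 218 and 241, each left out by itself. Of 9 genes of oligodendrocyte precursors 2 were lower (Bcan -0.63 and, named after its values were seen, Kcnd3 -0.54), and 2 higher (Vcan 0.75 and Cdo1 0.70), where Cdo1 was not called without rat 194, rat 196 or rat 218. Cspg4, the NG2 proteoglycan that marks precursors, was at -0.06 (limma adjusted p = 0.772). In lists as short as these, counts near the shares over all clusters say little about the list.

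**Figure D4:**
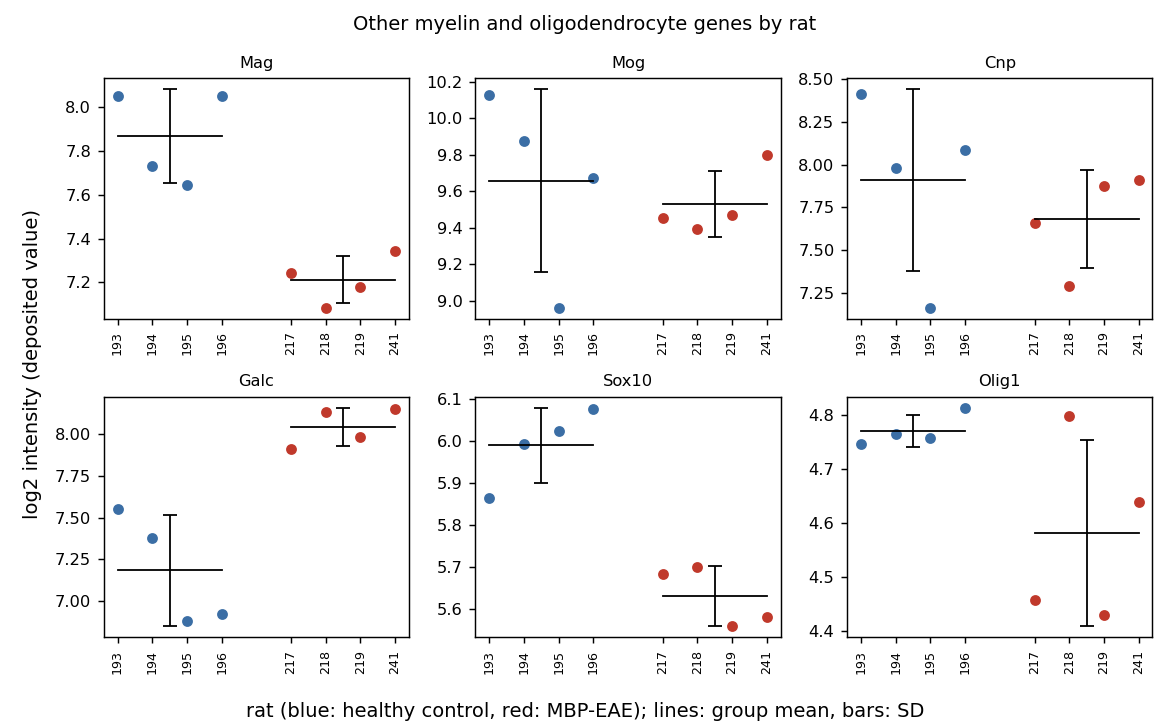
Log2 intensity (vertical axis, a scale of its own in each panel) of 6 other genes of myelin and oligodendrocytes in the 4 healthy (blue) and 4 MBP-EAE rats (red), with group means as lines and SDs as bars. Mag and Sox10 are lower and Galc is higher without overlap, while Mog, Cnp and Olig1 overlap.

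The partners of myelin were read alongside. Among 14 genes of the contacts between axon and myelin 7 were lower and 0 higher (median -0.39). They include Erbb4, a neuregulin receptor (-0.92), Kcnab2, a subunit of axonal potassium channels (-0.66), and Cntn1, which joins axon and glia beside the node (-0.53, limma adjusted p = 0.0453). Fitted with batch, 3 of these 14 stayed lower, and without rat 196 or without rat 218 the number was 4. Of 6 further genes of the Nogo pathway, to which Omg belongs, Mag and Rtn4 (Nogo, -0.42) were lower. The receptor Rtn4r was at 0.00 (limma adjusted p = 0.990), so the ligands Omg, Mag and Rtn4 were lower and their receptor did not pass the test. For Rtn4 the adjusted p was 0.0519 with the batch term in limma.

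Genes of other cells moved in the same cords. All 13 genes of monocytes and macrophages were higher (median 3.47), led by Cybb (5.50), Ccr2 (4.90) and Lyz2 (4.15), and their summed level in log2 units was 9.15 to 9.46 in healthy and 12.97 to 13.24 in diseased rats. Whether this RNA came from infiltrating cells or from resident microglia of the cord was not tested. Of 7 T cell genes 6 were higher (median 1.40; summed level 6.79 to 7.17 against 9.20 to 9.44), with Cd4 (3.56), Cd8a (2.29) and Cd3d (1.98) in the lead. The paper cites work on Cd4 in microglia of this model, so Cd4, which enters that summed level, does not mark T cells alone. The other called rises were Cd2 (1.40), Cd28 (1.28) and Cd5 (0.82), and Cd6 (0.28) did not pass. Of 13 genes of neurones 6 were lower and 0 higher (median -0.39), and the largest falls among those called were in Nefh (-0.76), Stmn3 (-0.54) and Nefl (-0.51). The number was 3 with batch fitted, namely these 3, and 3 without rat 196. The summed level of the neurone genes was 13.99 to 14.23 against 13.63 to 13.85. Of 10 astrocyte genes 3 were higher (Slc1a3 1.15, Gfap 0.69 and Gja1) and 1 lower (Fgfr3 -0.38), and their summed level overlapped (12.91 to 13.71 against 13.10 to 13.64). Their median was -0.02, and 5 of the 10 were below 0. The number of astrocyte genes lower was 0 without rat 196 or 217, 2 without rat 219 and 4 without rat 195. Of 7 Schwann cell genes Cdh19 was lower (-1.30), Egr2 was higher (0.71) and 5 did not pass. Pmp22, which did not pass, ranged from 8.19 to 10.28 among the healthy rats, and the amount of nerve root in each sample was not measured. Of 6 endothelial genes Slc2a1 was higher (0.59), a call lost in 10 of 17 alternatives. The part of these cells in the lower values of the 7 genes was not tested. None of the genes in these lists was below the lower quartile of its array on all 8 arrays. A gene that rises in disease can meet this through the diseased arrays alone. Cd3d, Cd2 and Cd28 were below the lower quartile on every healthy array, so their rises start from dim values. Cd3d, for example, was at 3.48 in healthy rat 193, where the lower quartile was 3.87.

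**Figure D5:**
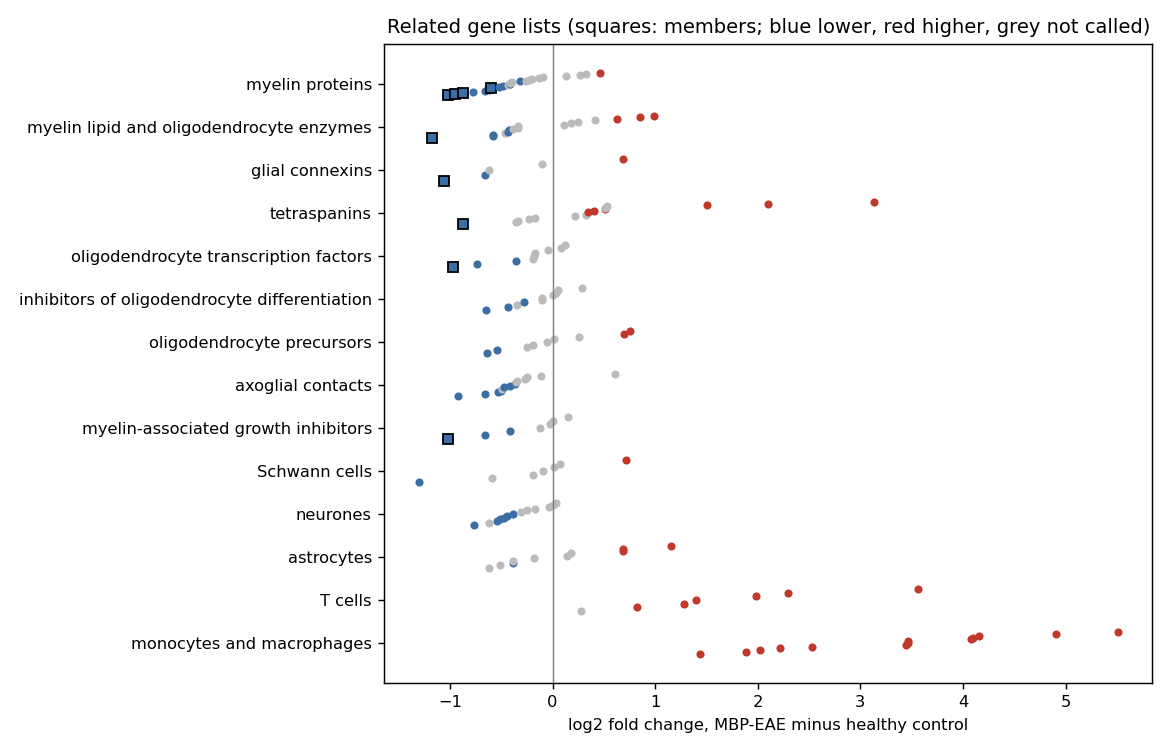
Log2 fold change, MBP-EAE minus healthy control (horizontal axis), of each gene in 14 lists (rows), with squares for the 7 genes described here, blue for called lower, red for called higher and grey for not called. The lowest point is a square in every list that holds one, that of Mbp lies among other myelin protein genes, and the monocyte and T cell lists lie wholly above 0.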

How the data were processed

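The deposited values were log2 intensities of 8793 transcript clusters on 8 Affymetrix Rat Exon 1.0 ST arrays. The authors extracted probe data with Expression Console and RMA and then, in Partek, applied RMA background correction with a prior adjustment for GC content, quantile normalization and a log2 transform, and averaged core probe sets per gene. The processing notes name build rn4, whose coordinates were not used. A single symbol stood in the platform table for 7603 clusters and more than 1 for 409, and 781 were absent from it.

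Clusters were compared with limma 3.58.1 in R 4.3.3 (MBP-EAE minus healthy control, no covariate) with Benjamini-Hochberg adjustment over all 8793. The labels give each rat a number but no culture, litter or batch, and the 4 arrays a group limit the precision. No filter on dim clusters was used, so all 8 clusters of the 7 genes entered. For a listed gene with several clusters the one with the highest mean was used, and 165 of 256 listed genes were matched. Others named are the 3 largest called changes of a list, any called against its majority, the 5 most like the mean profile, and well-known genes of the lineage. The members and lists were chosen with earlier results of these data known. Batches were recovered from the published folds and p-values after the data were seen. Alternatives were the methods' test on group alone, other priors and array weights, a filter on dim clusters, other scalings, each rat left out, and batch as a term. Scripts were tested on simulated data.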

Additional observations from a re-analysis of the deposited data

Results flagged for a closer look

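None of the 7 genes had a healthy or diseased rat that stood far from the other 3 of its group by Dixon's test. Of 118 groups of 4 values tested among the genes named, 4 did, and chance gives about 1 in 20. Cd37 was at 3.93 in healthy rat 193, against 4.32 to 4.35 in the other healthy rats. Gfap was at 8.56 in healthy rat 195, against 9.05 to 9.11. Cd3d was at 6.25 in MBP-EAE rat 218, against 5.54 to 5.61 in the other diseased rats, and Fez1 was at 7.98 in the same rat, against 8.26 to 8.30. Rat 218 is the one in which 6 of the 7 genes were lowest.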

How the results depend on the processing

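Mbp cluster 1, Omg, Opalin, Ugt8, Gjb1, Tspan2 and St18 were called lower under all 17 alternatives, and Mbp cluster 2 under none. The log2 fold change ranged from -1.25 to -1.02 for Ugt8, -1.14 to -0.99 for Gjb1, -1.10 to -0.86 for Omg, -1.08 to -0.86 for St18, -1.16 to -0.81 for Opalin, -0.97 to -0.72 for Tspan2 and -0.66 to -0.44 for Mbp, and the highest limma adjusted p was 0.0450, for Opalin with the batch term. For the pairs of genes the adjusted test could hardly pass under any setting (0 passed as deposited, after cyclic loess and after repeated quantile normalization), and leaving out a rat was not done for them. No paired analysis was possible because no rat number is shared by both groups.

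The counts over other genes were less stable. Clusters called lower were 1280, and 2222 with array weights, 850 after a shift by reference genes, 605 with the batch term and 835 to 1441 with 1 rat left out (835 without rat 196 and 850 without rat 217), and those called higher were 994 (809 to 1062 with 1 rat left out). Of related list genes 28 were lower, and 12 with the batch term (19 to 38 with 1 rat left out), and 13 were higher, 8 after the shift by reference genes and 7 with the batch term (9 to 18 with 1 rat left out). Of all called clusters 43.7% were higher, 58.1% after cyclic loess (1373 higher, 991 lower) and 54.1% with the batch term. Of the genes named, Bmp4 and Cntn1 lost their call in 11 alternatives each, Cryab and Slc2a1 in 10, Id4 in 9, Cdo1 in 6, Sox10 in 4, Rtn4 and Fgfr3 in 3 and Sept4, Gpd1 and Vapb in 1, all with their direction kept. Mog (-0.36 to 0.03), Cspg4 (-0.11 to 0.03) and Rtn4r (-0.13 to 0.18), which did not pass, changed sign between alternatives. Of 6 reference genes, Rplp0 (2.68) and Actb (1.38) were higher. The causes were not tested.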
